A study of Mus musculus with 4 samples.

Results

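Non-coding host transcripts are the long RNAs from which some microRNAs (miRNAs) are cut. The 8 studied here were Meg3, Rian, Mirg, Mir99ahg, Mir100hg, Mir9-3hg, Mir124a-1hg and Mir22hg. They were picked by gene symbol from 32286 features, and each matched 1 feature. All 8 are described across cell classes of the mouse brain and between libraries labelled as Ago2 wild type (WT) and Ago2 knockout (KO).

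A host is transcribed in the nucleus, where Drosha and Dgcr8 cut miRNA hairpins out of it. Dicer1 trims each hairpin to the mature miRNA, which is loaded into an Argonaute protein such as Ago2. The miRNA guides this protein to target mRNAs through its seed, a short stretch near the 5′ end. Meg3, Rian and Mirg lie in the imprinted Dlk1-Dio3 locus, are expressed from the maternal chromosome and are known for high expression in neurons. The count of a host in a nucleus is a measure of the precursor RNA and not of the mature miRNA.

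The tissue was frozen hemispheres of the brain, taken on postnatal day 14 from mice of the C57BL/6 strain. Every group carried Slc17a6-Cre, a driver active where VGLUT2, a glutamate transporter of excitatory neurons, is made. The Cre transcript, listed as a feature of its own, had 0 UMIs in all barcodes of every library, so its presence could not be checked. The 2 WT libraries were Ago2 wt/wt, and the 2 KO libraries were Ago2 flox/flox. Separate animals are not named in the labels, so every p below measures the spread between libraries, which may be technical. The comparison asks whether host transcripts change when Ago2 is deleted in excitatory neurons.

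The deposited tables held 3472 to 6752 barcodes and 10845009 to 29317266 UMIs (unique molecular identifiers, 1 per captured RNA) per library, and 15431 nuclei were kept, with median depths of 2313 to 3094 UMIs. Barcodes shared between libraries numbered 37. The design text speaks of cortical cells, but cerebellar granule neurons, with 3029 nuclei, were the most numerous class. Marker genes named 11 classes with at least 20 nuclei in every library, and each name stands for nuclei like that type (astrocyte-like and so on). All markers of its own list were detected in every library of each of these classes. A further 5 clusters are called by number because their markers were mixed or too few. Cluster 18 (1597 nuclei) was led by Glra1, Baiap3 and Resp18, and cluster 12 by Cpa6 and Frmd7. Clusters 3, 5 and 12 held 3, 6 and 3 raised markers of immature neurons. Cluster 3 also held 4 of cerebellar granule neurons, and clusters 5 and 12 held 7 and 8 of GABAergic neurons. Top2a, a marker of cycling nuclei, was among the leading genes of cluster 5. Cluster 7 was led by Hbb-bs, Fth1 and Mbp, and its median depth was 0.296 of that of its libraries.

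Ago2, the targeted gene, did not check the labels. In glutamatergic nuclei its CPM (UMIs of a gene per 1000000 UMIs of the class) was 72.2 in WT1 and 78.8 in WT2, and 105 and 102 in the libraries labelled KO1 and KO2. Both libraries labelled KO were the higher ones. In cluster 18, where the driver gene Slc17a6 averaged 60.8 CPM in WT against 13.9 in glutamatergic nuclei, Ago2 averaged 70.1 ± 6.92 CPM (SD, n = 2) in WT and 75.2 ± 8.60 (SD, n = 2) in KO. The deleted exons are not named in the labels, and tags from outside them say nothing about the deletion. The names WT1, WT2, KO1 and KO2 therefore stand for labels, and WT and KO below for the libraries so labelled.

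All hosts lie on the plus strand of GRCm38 (annotation GENCODE M21). Meg3 lies at chr12:109541001-109571726, Rian at chr12:109603940-109661716 and Mirg at chr12:109729764-109749460. These 3 follow one another within 208460 bases. Mir99ahg lies at chr16:77236317-77773427 and Mir100hg at chr9:41327077-41716994, under another symbol in that annotation. Mir9-3hg lies at chr7:79500026-79534403, Mir124a-1hg at chr14:64587331-64593961 and Mir22hg at chr11:75461539-75466676. Both hairpins within Meg3 and the hairpin of Mir22hg were exonic, while all hairpins within Rian, Mir99ahg, Mir100hg and Mir9-3hg were intronic. Of the 14 hairpins within Mirg, 4 were exonic, 5 intronic and 5 crossed an exon edge.

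In the RefSeq table for GRCm38.p6, 50 mature entries matched 7 of the hosts, and they carried 47 different seeds. The entry of miR-124 and that of let-7a-5p were missing. The sequences of Mir99ahg and Mir100hg, hosts on different chromosomes that share seeds, are shown first, 5′ to 3′, with the seed (bases 2 to 8) in capitals:
mmu-miR-99a-5p (Mir99ahg): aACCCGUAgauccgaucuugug
mmu-miR-100-5p (Mir100hg): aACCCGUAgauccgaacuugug
mmu-miR-125b-5p (Mir99ahg and Mir100hg): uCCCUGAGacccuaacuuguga
mmu-let-7c-5p (Mir99ahg): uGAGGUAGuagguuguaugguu
The sequences of miR-99a-5p and miR-100-5p shared their seed and differed by 1 substitution, U16A, counted from the 5′ end of miR-99a-5p. The sequence of miR-125b-5p was identical from both hosts. The let-7c-5p seed was listed under Mir99ahg. As the let-7a-5p entry of Mir100hg was missing, the let-7 seeds of the 2 hosts could not be compared. Mir99ahg and Mir100hg thus carry related sets of miRNAs on chromosomes 16 and 9.

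The chromosome 12 hosts carried many unlike seeds. Examples from each host are shown because their levels across classes are the main result on this locus, together with the seed that 2 miRNAs within Mirg share (miR-453 and miR-496a-5p):
mmu-miR-770-5p (Meg3): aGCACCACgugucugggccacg
mmu-miR-370-3p (Rian): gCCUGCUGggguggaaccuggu
mmu-miR-134-5p (Mirg): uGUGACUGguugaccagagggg
mmu-miR-382-5p (Mirg): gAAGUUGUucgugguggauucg
mmu-miR-453 (Mirg): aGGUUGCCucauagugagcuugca
mmu-miR-496a-5p (Mirg): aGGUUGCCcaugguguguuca
Both arms of miR-9, a miRNA of neural progenitors, and the main arm of miR-22 are given for the hosts of single hairpins:
mmu-miR-9-5p (Mir9-3hg): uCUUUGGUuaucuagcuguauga
mmu-miR-9-3p (Mir9-3hg): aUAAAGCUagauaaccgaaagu
mmu-miR-22-3p (Mir22hg): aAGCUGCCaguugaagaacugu

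The hosts fell into distinct patterns across the 16 classes and clusters. Meg3, Rian and Mirg were highest in cluster 18, GABAergic and glutamatergic nuclei. Mir99ahg and Mir100hg were highest in astrocytes, Bergmann glia and fibroblasts. Mir9-3hg was highest in oligodendrocyte precursors (OPC), and Mir124a-1hg in cluster 3, cerebellar interneurons and granule neurons. Mir22hg was almost undetected. Levels are CPM within a class, so they compare 1 host across classes and not hosts with each other. They are given as mean ± SD over all 4 libraries of both genotypes (n = 4), with no test, since the classes come from clustering the same nuclei. Neighbours in an order are called separated where all 4 libraries of one lie above all 4 of the other. As the classes come from the same 4 libraries, the number of libraries in which one exceeds the other within the library is given too. The hosts themselves were left out of the genes used for clustering. Less host RNA per nucleus and fewer nuclei with the host cannot be told apart in these sums.

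**Figure D1:**
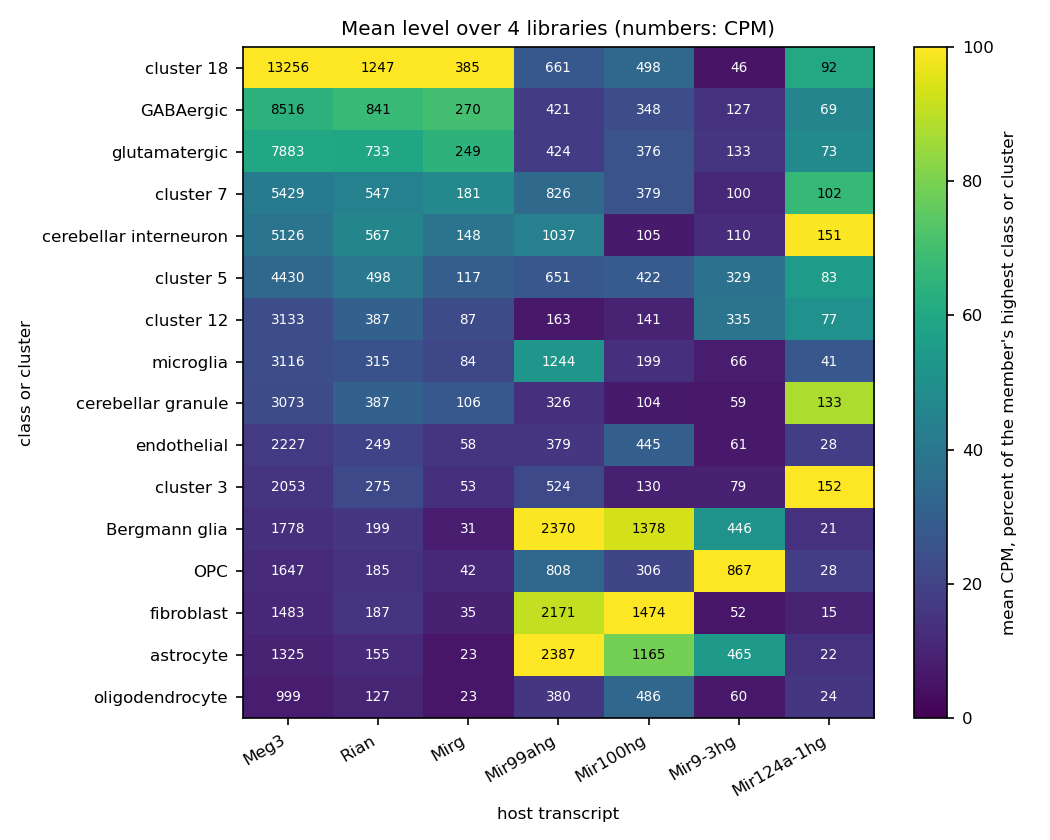
Mean level of 7 host transcripts (columns) in 16 classes and clusters (rows, ordered by Meg3). The colour is the mean CPM as a percentage of the host's highest class or cluster and the number is the mean CPM over 4 libraries, so that Meg3 runs from 13256 in cluster 18 to 999 in oligodendrocytes while Mir9-3hg peaks at 867 in OPC.

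Meg3, a long RNA of the maternal chromosome 12, reached 13256 ± 2518 CPM in cluster 18. It followed at 8516 ± 2764 in GABAergic and 7883 ± 2851 in glutamatergic nuclei, whose ranges over libraries overlapped with each other and with that of cluster 18. Cluster 7 had 5429 ± 1552, cerebellar interneurons 5126 ± 1291 and cluster 5 4430 ± 699. These neighbours overlapped too. Within libraries, cluster 18 exceeded GABAergic nuclei, GABAergic exceeded glutamatergic nuclei and these exceeded cluster 7 in 4 of 4, whereas cluster 7 exceeded cerebellar interneurons in 3 and those exceeded cluster 5 in 2. Cluster 5 was separated from the next, cluster 12 at 3133 ± 505 CPM.

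Below that step Meg3 was at 3116 ± 307 CPM in microglia, 3073 ± 740 in cerebellar granule neurons, 2227 ± 1683 in endothelial nuclei and 2053 ± 493 in cluster 3. It was at 1778 ± 570 in Bergmann glia, 1647 ± 468 in OPC, 1483 ± 367 in fibroblasts, 1325 ± 351 in astrocytes and 999 ± 291 in oligodendrocytes. Each of these overlapped with its neighbour, and none exceeded the next in 4 of 4 libraries, while the highest mean was 13.3-fold above the lowest. Microglia and cluster 7 had shallow nuclei, of 1401 and 779 UMIs at the median, and the part of free RNA in their values was not tested.

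Single nuclei showed the same contrast. The median nucleus had 70 Meg3 UMIs in cluster 18, 38 in glutamatergic and 31 in GABAergic nuclei, against 3 in oligodendrocytes and in astrocytes. At least 1 Meg3 UMI was found in 99.4% of cluster 18 nuclei (95% exact interval 98.9 to 99.7) and in 91.3% of oligodendrocytes (89.1 to 93.1), at median depths of 6160 and 3111 UMIs. Thinned to 1000 UMIs per nucleus, which left out 4 and 6 shallower nuclei, the shares were 98.9% and 63.6%. Intervals cover counting error only, and the share in oligodendrocytes serves as the background in a class low for Meg3.

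**Figure D2:**
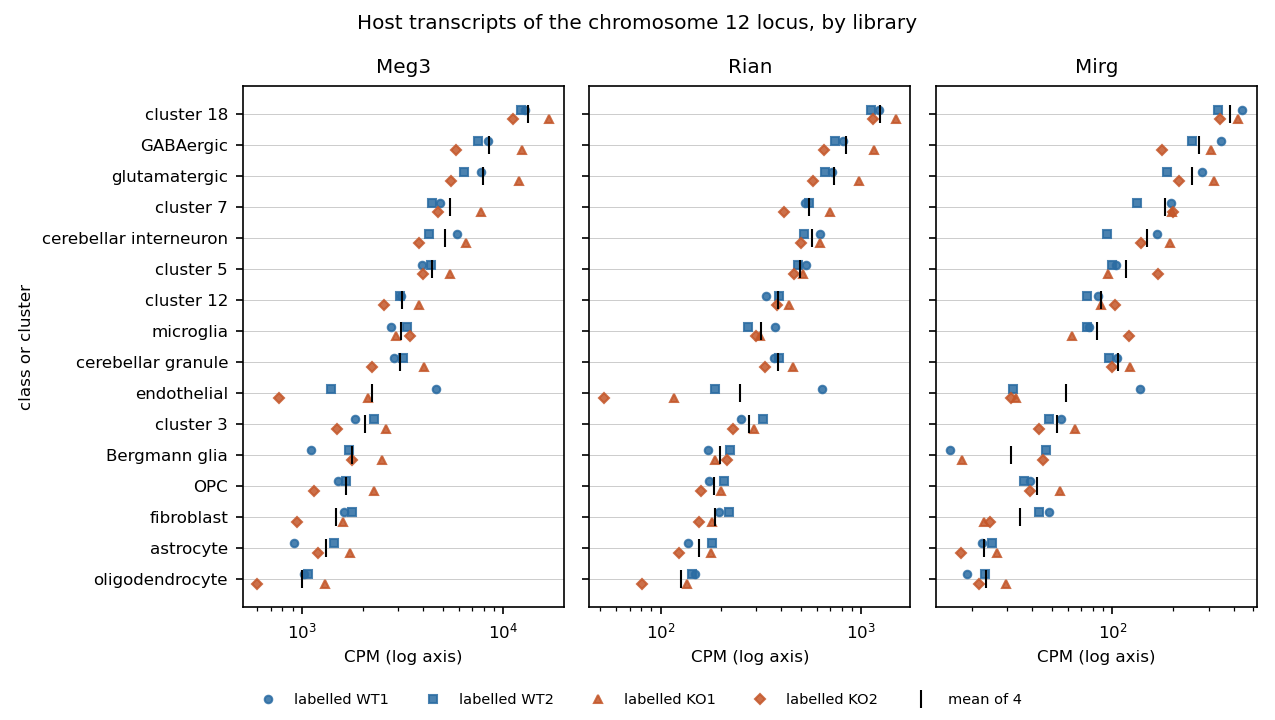
CPM (log axis) of Meg3, Rian and Mirg in each of 4 libraries by class or cluster. Blue marks are libraries labelled WT, orange marks those labelled KO and the black tick is the mean of 4; the library labelled KO1 (triangles) is the rightmost for Meg3 in 13 of the 16 rows.

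Rian, the host of several miRNAs and of small nucleolar RNAs, had nearly the order of Meg3. It was at 1247 ± 170 CPM in cluster 18, 841 ± 220 in GABAergic nuclei, 733 ± 173 in glutamatergic nuclei, 567 ± 65.8 in cerebellar interneurons, 547 ± 117 in cluster 7 and 498 ± 30.9 in cluster 5. Cluster 5 was again separated from the next, cerebellar granule neurons at 387 ± 54.0. The remaining levels fell from 387 ± 41.5 in cluster 12 through microglia at 315 ± 42.6, cluster 3 at 275 ± 42.0, endothelial nuclei at 249 ± 267 and Bergmann glia at 199 ± 22.8. Fibroblasts had 187 ± 26.6, OPC 185 ± 22.5, astrocytes 155 ± 28.7 and oligodendrocytes 127 ± 31.4. No other neighbours were separated. Within libraries, the first 4 of this order and, lower down, OPC and astrocytes kept their order in 4 of 4.

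Mirg, which holds the densest group of hairpins, had the same leading classes. It was at 385 ± 55.1 CPM in cluster 18, 270 ± 73.8 in GABAergic nuclei, 249 ± 60.1 in glutamatergic nuclei, 181 ± 32.6 in cluster 7, 148 ± 42.4 in cerebellar interneurons and 117 ± 34.7 in cluster 5. Cerebellar granule neurons had 106 ± 11.5, cluster 12 had 87.5 ± 11.8, microglia 83.8 ± 25.7, endothelial nuclei 58.4 ± 52.6 and cluster 3 52.9 ± 9.51. The lowest were OPC at 42.4 ± 8.39, fibroblasts at 34.8 ± 12.9, Bergmann glia at 31.3 ± 16.8, oligodendrocytes at 23.4 ± 4.54 and astrocytes at 23.1 ± 3.92. No neighbours were separated, and the ends of the order differed 16.7-fold. Within libraries, cluster 18 exceeded GABAergic nuclei, glutamatergic nuclei exceeded cluster 7, cluster 7 exceeded cerebellar interneurons and cluster 3 exceeded OPC in 4 of 4, while GABAergic exceeded glutamatergic nuclei in 2.

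Across the 64 sums of a class and library, Spearman's rho was 0.97 between Meg3 and Rian, 0.94 between Meg3 and Mirg and 0.95 between Rian and Mirg. These sums share 4 libraries and 16 classes and are no independent replicates. Among 7189 genes with a mean of at least 20 CPM, the 3 most like Meg3 were Rian, B830012L14Rik (rho 0.97) and Snhg11 (rho 0.95). B830012L14Rik is a long non-coding RNA gene on the same strand at chr12:109695586-109702587, between Rian and Mirg. It was also among the 3 genes most like Rian (rho 0.97) and most like Mirg (rho 0.93). Of the protein-coding neighbours, Rtl1, a gene of the same locus on the other strand, had 1312 UMIs and was also highest in cluster 18, at 48.3 ± 9.88 CPM, with 29.5 ± 2.24 in glutamatergic nuclei, 27.4 ± 3.44 in GABAergic nuclei and 2.27 ± 2.26 in oligodendrocytes. Begain had 874 UMIs, Dlk1 157 and Dio3 5.

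The 3 hosts did not keep 1 ratio in every class. Mirg gave 3.27 ± 0.57 UMIs per 100 Meg3 UMIs in glutamatergic nuclei, 3.24 ± 0.66 in GABAergic nuclei and 3.56 ± 0.67 in cerebellar granule neurons. In astrocytes it gave 1.81 ± 0.45, with 2.46, 1.75, 1.53 and 1.48 in the libraries labelled WT1, WT2, KO1 and KO2. Every library of the astrocytes lay below every library of the glutamatergic nuclei, which ranged from 2.67 to 3.91. Rian had another pattern, from 9.48 ± 0.62 per 100 Meg3 UMIs in cluster 18 and 9.58 ± 1.08 in glutamatergic nuclei to 12.8 ± 1.42 in granule neurons and 13.7 ± 1.78 in cluster 3. Cluster 3 was above glutamatergic nuclei in every library. These ratios are of counts and are not corrected for length.

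**Figure D3:**
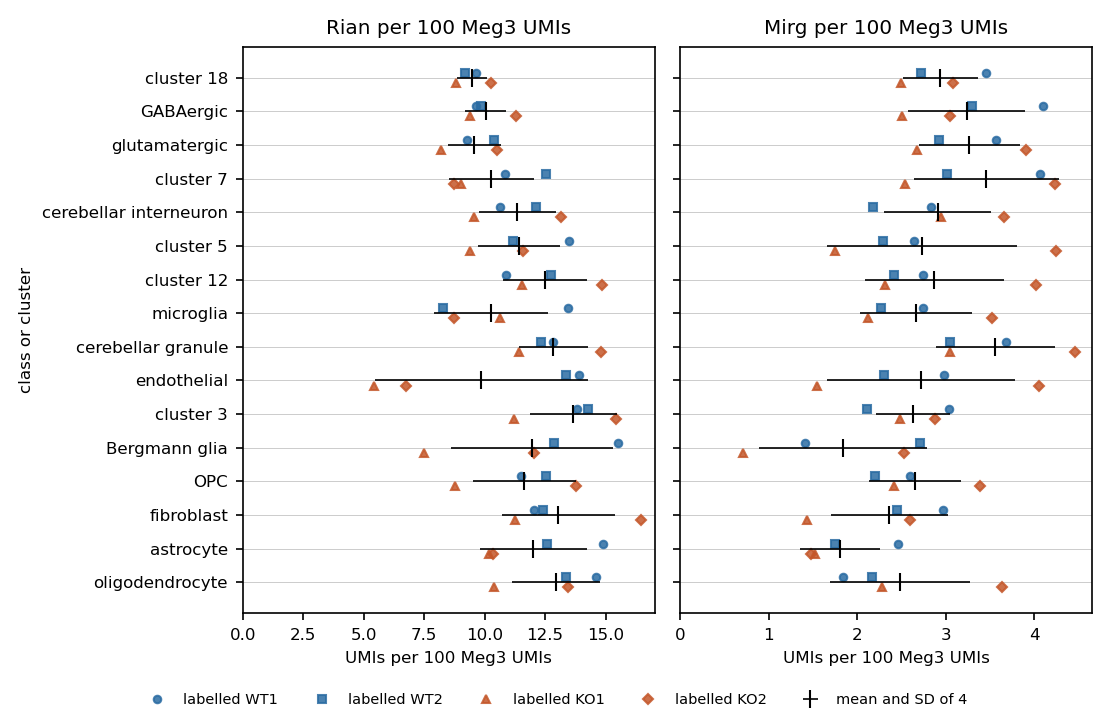
Rian (left) and Mirg (right) as UMIs per 100 Meg3 UMIs in each of 4 libraries by class or cluster, with mean and SD in black. Mirg is at 1.81 in astrocytes against 3.27 in glutamatergic nuclei, and Rian at 9.48 in cluster 18 against 13.7 in cluster 3.

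Mir99ahg, the host of miR-99a, let-7c and a copy of miR-125b shown above, was highest in 3 non-neuronal classes. It was at 2387 ± 113 CPM in astrocytes, 2370 ± 134 in Bergmann glia and 2171 ± 236 in fibroblasts. These 3 overlapped, and each library of the fibroblasts was above each library of the next class, microglia at 1244 ± 344. Cerebellar interneurons had 1037 ± 138, cluster 7 had 826 ± 47.2 and OPC 808 ± 84.5. Cerebellar interneurons were separated from cluster 7, and OPC from the next, cluster 18.

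Most neuronal classes held less of Mir99ahg. Cluster 18 had 661 ± 56.1 CPM, cluster 5 651 ± 59.9, cluster 3 524 ± 63.4, glutamatergic nuclei 424 ± 26.3 and GABAergic nuclei 421 ± 49.6, and cluster 3 was separated from glutamatergic nuclei. Oligodendrocytes at 380 ± 24.99, endothelial nuclei at 379 ± 108 and granule neurons at 326 ± 54.7 overlapped in turn, and cluster 12 was separated below them, at 163 ± 37.7. Within libraries, cluster 5 also exceeded cluster 3 in 4 of 4. Within the GABAergic class, cluster 17, led by Lhx6, Npy and Sst, had 702 ± 122 CPM and cluster 10, led by the striatal genes Rarb and Drd2, had 276 ± 45.0. With at least 1 UMI in 93.4% of astrocytes (thinned, 84.4%) and 44.4% of granule neurons (thinned, 25.7%), at similar median depths of 2195 and 2154 UMIs, the share of nuclei followed the level.

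Mir100hg, which holds the related hairpins of miR-100, let-7a-2 and miR-125b, shared those 3 leading classes. It was at 1474 ± 195 CPM in fibroblasts, 1378 ± 171 in Bergmann glia and 1165 ± 106 in astrocytes. Each library of the astrocytes was above each library of the next, cluster 18 at 498 ± 12.9. Oligodendrocytes had 486 ± 49.4, endothelial nuclei 445 ± 47.3, cluster 5 422 ± 114, cluster 7 379 ± 36.6, glutamatergic nuclei 376 ± 34.5 and GABAergic nuclei 348 ± 33.7, in an order of overlapping neighbours. Within libraries, Bergmann glia also exceeded astrocytes in 4 of 4. GABAergic nuclei were separated from OPC at 306 ± 10.2, OPC from microglia at 199 ± 8.83 and microglia from cluster 12 at 141 ± 25.6.

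Its lowest levels were 130 ± 20.8 CPM in cluster 3, 105 ± 34.4 in cerebellar interneurons and 104 ± 4.96 in granule neurons. The hosts of these related miRNAs therefore differed in cerebellar interneurons, which ranked 5 of 16 for Mir99ahg and 15 of 16 for Mir100hg, and in microglia, which ranked 4 and 12. Their rho over the 64 sums was 0.43. Mir100hg also differed within the oligodendrocyte class. It was at 806 ± 95.8 CPM in cluster 11, led by Mal, Mog and Gsn of mature myelinating cells, and at 156 ± 16.2 in cluster 23, led by Enpp6 and Bcas1 of newly formed ones. Within glutamatergic nuclei it was at 598 ± 49.0 in cluster 6, led by Hs3st4 and Tbr1 of deep cortical layers, and at 325 ± 43.2 in cluster 1. The 4 libraries did not overlap in either pair.

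Among small clusters left out of the tests, cluster 22, led by Gdpd4, Sntb1 and Frzb, had the highest Mir100hg level, 3989 ± 246 CPM, from 101 nuclei with at least 16 in each library. Choroid plexus nuclei had 1344 ± 169 CPM of Mir99ahg and 1133 ± 165 of Mir100hg, from 62 nuclei. In cluster 21, with 93 nuclei led by Synpo2 and Lef1, Meg3 was at 11140 ± 3385 CPM. Purkinje nuclei were 16 in all, and their Mir9-3hg level was 498, 745 and 626 CPM in the libraries labelled WT1, WT2 and KO1, with no such nucleus in KO2.

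**Figure D4:**
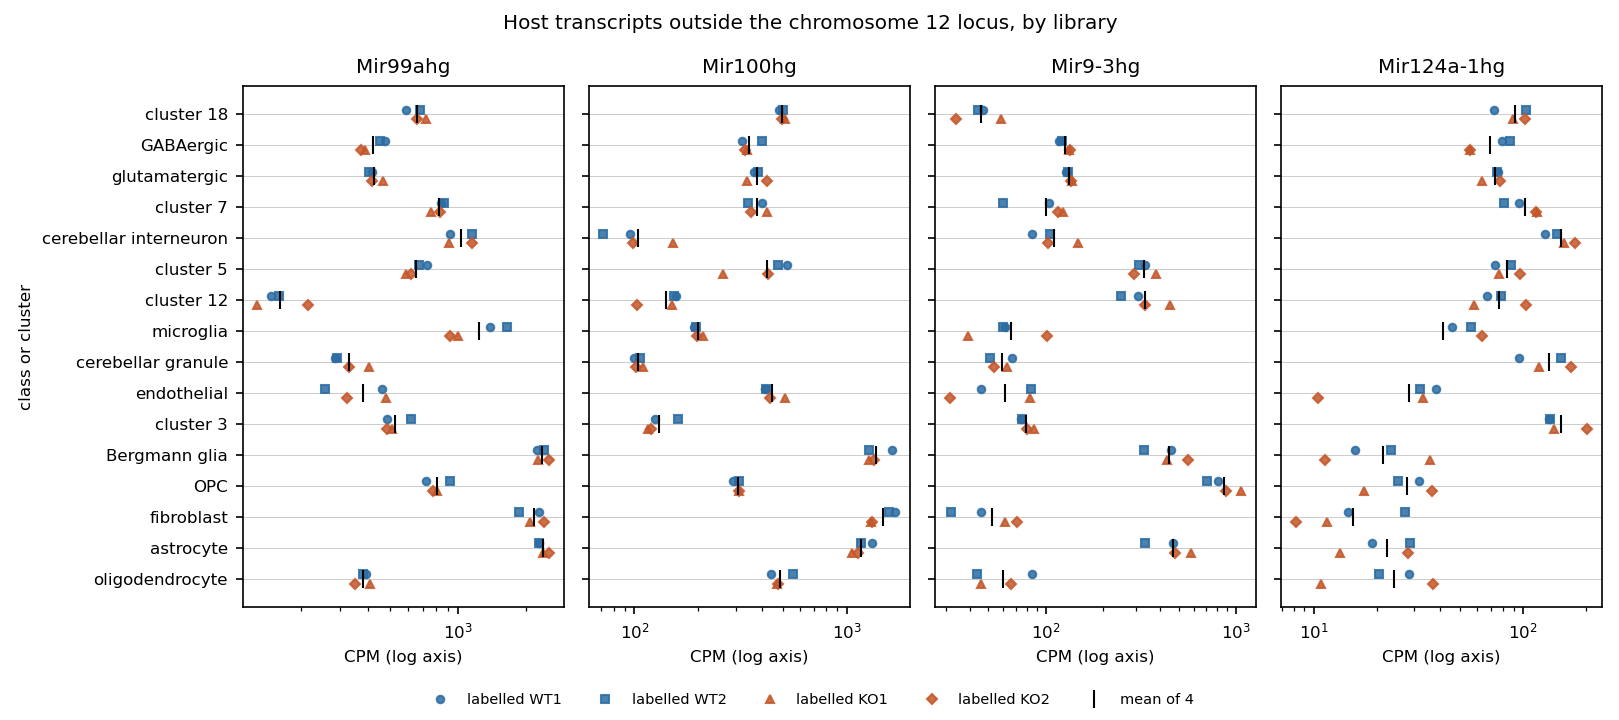
CPM (log axis) of Mir99ahg, Mir100hg, Mir9-3hg and Mir124a-1hg in each of 4 libraries by class or cluster, in the row order of Meg3. A library with 0 UMIs has no mark, which holds for Mir124a-1hg in microglia of the library labelled KO1; Mir99ahg and Mir100hg lie furthest right in astrocytes, Bergmann glia and fibroblasts.

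The genes most like these hosts included genes on their opposite strand. For Mir100hg they were Gm48742 (rho 0.89), Mast4 (rho 0.80) and Clmn (rho 0.79). For Mir99ahg they were Arhgef40 (rho 0.81), Gm11146 (rho 0.81) and Igdcc4 (rho 0.78). Gm48742 and Gm11146 overlap their host on the other strand, and they had 6306 and 1359 UMIs over all barcodes. Use of strand in the counting was not given in the sources used here, so reads of the overlapping pairs cannot be told apart.

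Mir9-3hg, a host of miR-9, was at 867 ± 153 CPM in OPC, separated above the other 15 classes and clusters with enough nuclei. Among the smaller ones, cycling nuclei had 813 ± 173, from 51 nuclei with 2 in each of the libraries labelled KO. Astrocytes had 465 ± 100, Bergmann glia 446 ± 95.3, cluster 12 335 ± 85.5 and cluster 5 329 ± 39.1. These 4 overlapped, and cluster 5 was separated from the next, glutamatergic nuclei at 133 ± 4.29. The rest lay in 1 chain of overlapping neighbours, in which glutamatergic exceeded GABAergic nuclei in 4 of 4 libraries, with 127 ± 8.34 in GABAergic nuclei, 110 ± 27.0 in cerebellar interneurons, 100 ± 28.4 in cluster 7, 78.9 ± 5.64 in cluster 3 and 65.6 ± 26.3 in microglia. Endothelial nuclei had 60.8 ± 26.4, oligodendrocytes 60.01 ± 19.3, granule neurons 58.6 ± 7.34, fibroblasts 52.5 ± 17.2 and cluster 18 45.6 ± 10.1. OPC and the oligodendrocytes that arise from them thus stood far apart, with 81.5% (exact interval 78.5 to 84.3; thinned, 53.9%) and 14.9% (12.5 to 17.4; thinned, 5.55%) of nuclei with a UMI at median depths of 2446 and 3111 UMIs. Fibroblasts, a class low for this host, had 9.80% (thinned, 2.25%) at a median of 3093 UMIs. C130071C03Rik, the host of another miR-9 copy, had a different order, with 821 ± 76.0 CPM in cluster 5, 738 ± 217 in Bergmann glia and 724 ± 57.9 in cluster 3. The genes most like Mir9-3hg were Gm44257 (rho 0.79), Gm3764 (rho 0.73) and Fmn2 (rho 0.71).

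Mir124a-1hg, a host of the neuronal miRNA miR-124, had its highest means in classes of the cerebellum and in cluster 3. It was at 152 ± 33.8 CPM in cluster 3, 151 ± 20.6 in cerebellar interneurons and 133 ± 33.1 in granule neurons. Cluster 7 had 102 ± 16.9, cluster 18 had 91.8 ± 14.3, cluster 5 83.4 ± 10.4, cluster 12 76.7 ± 19.3, glutamatergic nuclei 73.0 ± 6.31 and GABAergic nuclei 69.1 ± 15.9. Microglia at 41.5 ± 28.6, endothelial nuclei at 28.4 ± 12.3 and OPC at 27.7 ± 8.38 were lower. Oligodendrocytes had 24.2 ± 11.2, astrocytes 22.2 ± 7.46, Bergmann glia 21.5 ± 10.7 and fibroblasts 15.4 ± 8.38. No neighbours in this order were separated or kept their order in 4 of 4 libraries, and the ends differed 9.90-fold.

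Mir124-2hg, a second host of miR-124, had another order. It was at 144 ± 18.4 CPM in cluster 18, 85.3 ± 13.4 in glutamatergic nuclei, 25.02 ± 9.30 in granule neurons and 16.1 ± 5.99 in cluster 3. Granule neurons and cluster 3, which were high for Mir124a-1hg, thus lay below cluster 18 and glutamatergic nuclei for Mir124-2hg. The genes most like Mir124a-1hg were the synaptic genes Cacng2 (rho 0.87) and Rab3c (rho 0.86), and Mmp24 (rho 0.88).

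Mir22hg, which has its hairpin in an exon, was near the limit of detection, with 1, 8, 1 and 1 UMIs over all kept nuclei of the libraries labelled WT1, WT2, KO1 and KO2. It overlaps Tlcd2 on the same strand, which had 71 UMIs. It could not be compared between classes or genotypes at this depth.

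Between genotypes, none of the 7 hosts with enough counts passed the test in any class, and Mir22hg was not tested. Of 128 pairs of a host and a class or cluster, 104 had enough counts, and 0 had an adjusted p under 0.05 by the edgeR quasi-likelihood test with Benjamini-Hochberg adjustment over all genes of the class (adjusted p from 0.488 to 1.00). DESeq2 also called 0. At an unadjusted p under 0.05, edgeR had 8 pairs, or 7.69%, where 6.2% of all pairs of a gene and a class had one, and DESeq2 had 2. The share of all genes past the adjusted threshold was 1.94% in astrocytes, 0.511% in Bergmann glia, 0.233% in OPC, 0.163% in cluster 7 and 0.141% in cluster 3. It was 0.0867% in oligodendrocytes, 0.0186% in cluster 5, 0.00906% in glutamatergic nuclei, and 0% in the other 8 classes and clusters and in all nuclei together. With 2 libraries against 2, the groups of a host fail to overlap often, and 20 of the 104 pairs (19.2%) had both libraries labelled KO above both WT libraries, where 18.7% of all pairs of a gene and a class did. The reverse held for 15 pairs (14.4%), where 16.3% of all pairs did.

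**Figure D5:**
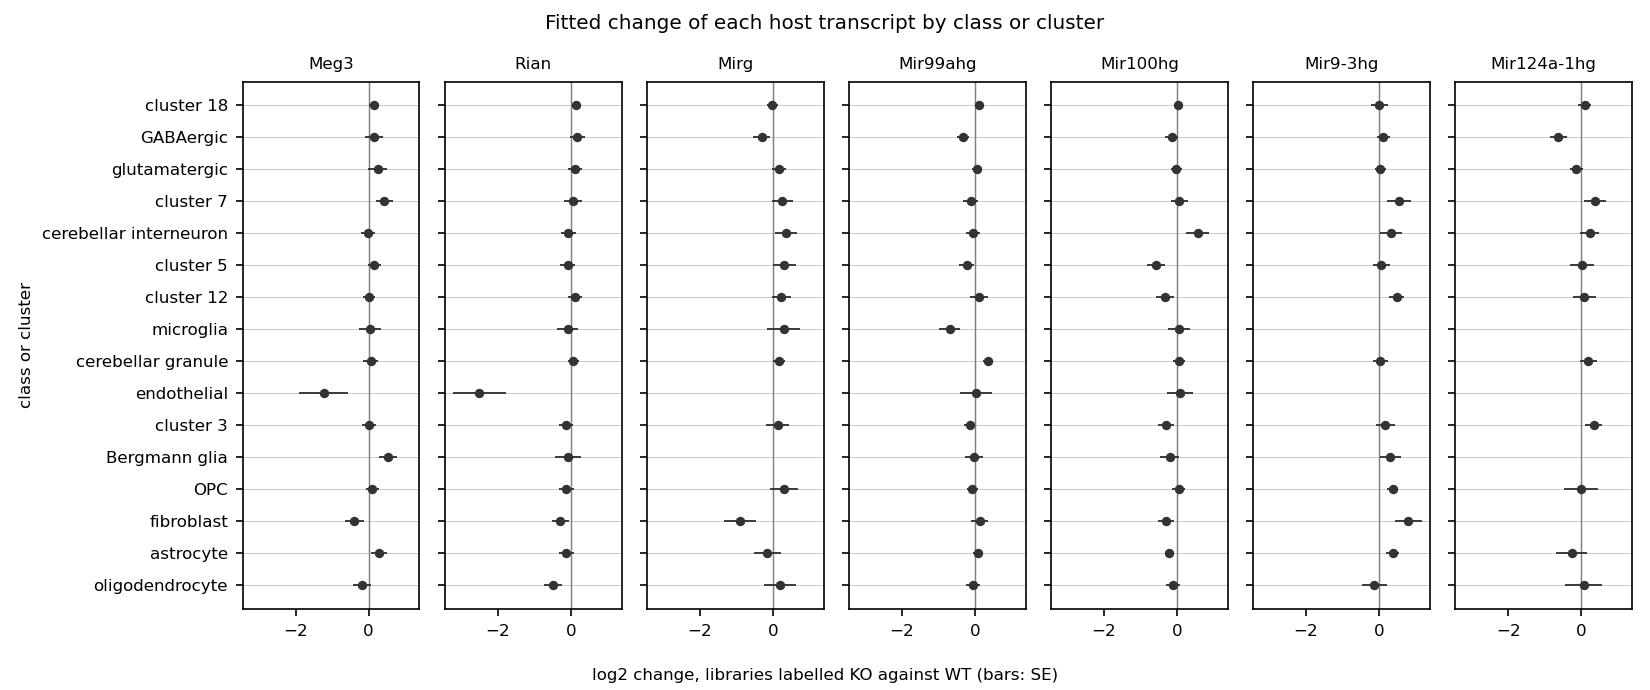
Fitted log2 change of each host in libraries labelled KO against WT (x axis, bars are the SE) by class or cluster. Pairs with too few counts have no point, and 0 of the 104 points passed the test; the points furthest from 0 are those of Rian (-2.51) and Meg3 (-1.23) in endothelial nuclei.

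In glutamatergic nuclei, named from markers of excitatory neurons, Meg3 was at 7774 and 6355 CPM in WT1 and WT2 and at 11920 and 5485 in the libraries labelled KO1 and KO2. The libraries labelled KO lay on both sides of the WT libraries. The log2 change was 0.25 (SE 0.26, edgeR adjusted p 0.987), and it was -0.36 without the library labelled KO1. Rian was at 719, 659, 977 and 576 CPM in the same order (log2 change 0.12, SE 0.19) and Mirg at 277, 186, 319 and 214 (0.17, SE 0.20). In these hosts too, the genotypes overlapped.

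The other hosts had changes within 1 SE of 0 in glutamatergic nuclei. Mir99ahg had a log2 change of 0.05 (SE 0.14), Mir100hg of -0.02 (SE 0.16), Mir9-3hg of 0.03 (SE 0.15) and Mir124a-1hg of -0.14 (SE 0.18). In cluster 18, which held more of the driver gene, Meg3 was at 12778, 12224, 16890 and 11130 CPM, with a change of 0.15 (SE 0.14). The other 6 tested there ranged from -0.02 for Mirg to 0.15 for Rian, and over all nuclei the 7 hosts ranged from -0.06 for Mir100hg to 0.26 for Meg3. Cluster 18, the highest for Meg3, Rian and Mirg, made up 8.05% and 8.66% of WT nuclei and 12.8% and 13.3% of KO nuclei, and the part of this shift in the changes over all nuclei was not tested.

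The 2 libraries labelled KO differed from each other in Meg3. Over all nuclei Meg3 was at 5700 and 5815 CPM in WT1 and WT2 and at 8777 and 5278 in those labelled KO1 and KO2. The library labelled KO1 was the highest of 4 in 13 of the 16 classes and clusters, and that labelled KO2 the lowest in 11. The ratio of the former to the latter had a median of 1.71 (0.856 to 2.78), while the ratio of WT1 to WT2 had a median of 0.935 (0.637 to 3.31). For Rian the library labelled KO2 was lowest in 12 of the 16, with a median ratio of 1.29. Mir99ahg and Mir100hg had median ratios of 1.04 and 1.01, so the offset was not shared by all hosts. The 2 libraries had similar median depths, 2313 and 2379 UMIs.

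The change of Meg3 depended on which library labelled KO was left out. Without the library labelled KO2, its log2 change was 0.41 in cluster 18, 0.73 in cluster 7, 0.41 in granule neurons and 0.54 in astrocytes. Without the library labelled KO1 it was -0.41 in granule neurons and -0.15 in cluster 18. In these fits the lone library labelled KO was assumed to vary like the WT libraries, so no p is given.

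In the edgeR tests within single classes and clusters, the lowest unadjusted p among the hosts was that of Rian in endothelial nuclei. It had 84, 29, 7 and 5 UMIs in the libraries labelled WT1, WT2, KO1 and KO2, or 641, 186, 116 and 52.1 CPM. Both libraries labelled KO were below both WT libraries (log2 change -2.51, SE 0.72, edgeR p 0.00747, adjusted p 0.518). Meg3 was at 4608, 1391, 2139 and 771 CPM (log2 change -1.23, SE 0.67, adjusted p 0.676), with overlap. A single WT1 nucleus of 47558 UMIs, where the class had a median of 1619, gave 437 of the 604 Meg3 UMIs and 53 of the 84 Rian UMIs of that library. Without it WT1 had 2000 CPM of Meg3 and 371 of Rian. Leaving out the 6 nuclei with over 10 times the median depth of their class and library, a choice made after seeing the data, gave changes of -1.78 (SE 0.53, edgeR adjusted p 0.377) for Rian and -0.28 (SE 0.44, edgeR adjusted p 0.913) for Meg3.

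Markers of glutamatergic neurons had the same order over the libraries as Rian, but not as Meg3. The 14 glutamatergic markers summed to 5050 CPM in the endothelial nuclei of WT1, where 11 of the 14 were detected, and to 2462, 2073 and 1198 in WT2, KO1 and KO2, where 9, 13 and 9 were. The 10 endothelial markers were all detected in each library and summed to 7454 CPM in WT1 and to 10881, 12982 and 15081 in the others. The part of these neuronal RNAs in the Rian and Meg3 values was not tested. Without the library labelled KO1 the log2 change of Rian was -3.003. Without WT2 it was -3.17, and that of Meg3 was -1.86. With no filter on low counts Rian passed (-2.54, edgeR adjusted p 0.0039), where 38 of 15425 genes passed. Rian and Meg3 also passed with a block for the replicate number, given in the last section. All of these fits, and the marker sums, still held the WT1 nucleus of 47558 UMIs.

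Mir9-3hg was the host that leaned most to 1 side. Its log2 change was positive in 13 of the 14 classes and clusters in which it was tested, with a median of 0.24 and a range from -0.13 in oligodendrocytes to 0.80 in fibroblasts. Both libraries labelled KO were above both WT libraries in 8 of the 14, and below both in 0, where 18.7% and 16.3% of all pairs of a gene and a class were so. These classes share the same 4 libraries and are not independent of each other. In OPC, its highest class, it was at 807 and 705 CPM in WT and at 1067 and 891 in KO (log2 change 0.37, SE 0.15, edgeR p 0.0174, adjusted p 0.66). In astrocytes it was at 468 and 334 CPM in WT and at 579 and 477 in KO (log2 change 0.37, SE 0.18, adjusted p 0.488). In both classes the genotypes did not overlap, and the steps between them were smaller than the gap between libraries of 1 genotype.

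The remaining pairs with an unadjusted edgeR p under 0.05 had no common direction. Mir124a-1hg in GABAergic nuclei was at 79.1 and 86.2 CPM in WT and 55.4 and 55.9 in KO (log2 change -0.62, SE 0.23, adjusted p 0.651), and the change was -0.15 with no mitochondrial maximum. Cluster 17, the part of this class with more Mir124a-1hg, held 53 of 147 and 146 of 362 GABAergic nuclei in WT and 53 of 181 and 36 of 169 in KO. Within cluster 17 the host was at 124 and 120 CPM in WT and 85.4 and 62.6 in KO, without overlap, and within cluster 10 at 51.2 and 54.0 in WT and 42.1 and 53.8 in KO, with overlap. Mir99ahg in granule neurons was at 284 and 290 CPM in WT and 403 and 328 in KO (0.36, SE 0.14, adjusted p 0.713). In microglia it was at 1390 and 1660 in WT and 1002 and 925 in KO (-0.70, SE 0.28, adjusted p 0.885). In each of these 3 the genotypes did not overlap. The change of Mir99ahg in granule neurons was 0.22 without the library labelled KO1. Mir100hg in cluster 5 was at 522 and 477 CPM in WT and 262 and 426 in KO (-0.57, SE 0.25, adjusted p 0.999), and Mir9-3hg in cluster 12 at 304 and 250 in WT and 452 and 333 in KO (0.48, SE 0.20, adjusted p 1.00). Meg3 in Bergmann glia was at 1112 and 1719 in WT and 2504 and 1778 in KO (0.52, SE 0.25, adjusted p 0.55). The genotypes did not overlap in these pairs either, and the library labelled KO1 was the farthest from WT in each. Over the alternatives these changes ran from -0.95 to -0.25, from 0.23 to 0.68 and from 0.22 to 0.87.

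In the differences between classes that were tested, 0 hosts passed. For glutamatergic minus GABAergic nuclei, where 0.476% of all genes passed the edgeR interaction test, the difference was 0.50 (SE 0.17, p 0.00376, adjusted p 0.23) for Mirg, which had changes of 0.17 and -0.31. Mirg too was higher in cluster 17 than in cluster 10, at 365 ± 93.6 against 217 ± 62.1 CPM, and its genotypes overlapped within each of these clusters. The part of the cluster shares in these GABAergic values was not tested. For Mir99ahg it was 0.37 (SE 0.15) and for Mir124a-1hg 0.48 (SE 0.24). For glutamatergic nuclei minus astrocytes, where 0.691% of all genes passed, the differences ranged from -0.36 (SE 0.21) for Mir9-3hg to 0.36 (SE 0.37) for Mirg. The libraries of 5 hosts (Meg3, Mirg, Mir99ahg, Mir100hg and Mir124a-1hg) separated by genotype in opposite directions in 34 pairs of classes. Each class with KO above WT was joined to each with KO below WT, and for Mir100hg these were 4 and 5 classes. Of all pairs of a gene and a class, 18.7% and 16.3% separated in these directions. The share of opposite separations over all genes was not computed. In interaction tests of the 34 pairs of classes, chosen after seeing the data, 0 passed, where 0.11% of all tests of genes in the same pairs did.

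Genes that make and use miRNAs were set beside the hosts. Of 21 pathway genes, 0 passed the edgeR test in 234 tests over the 16 classes and clusters, with 9 at an unadjusted p under 0.05 (3.85%, where 6.2% of all pairs of a gene and a class had one). In glutamatergic nuclei 12 of 18 had positive changes, with a median of 0.02 against -0.01 over all genes. Ddx5, a helicase of the Drosha complex, was at 190 and 205 CPM in WT and at 142 and 150 in KO (log2 change -0.48, SE 0.15, edgeR adjusted p 0.822). Lin28b, which blocks the maturation of let-7, had a change of -0.47 (SE 0.21), and Tarbp2, the partner of Dicer1, of -0.63 (SE 0.48).

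Of the other non-coding hosts, 12 of 15 were in the files and 0 passed in 104 tests, with 7 (6.73%) at an unadjusted p under 0.05. The share over all pairs of a gene and a class was 6.2%. Mir670hg had a change of 0.38 (SE 0.18) in glutamatergic nuclei, Mir124-2hg of 0.25 (SE 0.17) and Mir133a-1hg of -0.23 (SE 0.30). Of the 34 protein-coding hosts, 1 passed in 426 tests, with 29 (6.81%) at an unadjusted p under 0.05. That was Trpm3, an ion channel gene and host of miR-204, in cluster 3 (log2 change 0.95, SE 0.14, edgeR adjusted p 0.00215). It was at 1189 and 1104 CPM in WT and 2434 and 1940 in KO. With a finer clustering (Leiden resolution 2), 0 of 5768 genes passed in cluster 3, so Trpm3 did not pass there. Its result in the other alternatives is not given here. In glutamatergic nuclei Trpm3 was at 496 and 503 CPM in WT and 727 and 760 in KO (0.53, SE 0.14, adjusted p 0.596), Slit2, a host of miR-218, had a change of -0.53 (SE 0.16) and R3hdm1, a host of miR-128, of -0.35 (SE 0.14).

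The protein-coding neighbours of the chromosome 12 locus gave 8 tests and 0 passed. An unadjusted edgeR p under 0.05 was found in 2 of them (25%), where 6.2% of all pairs of a gene and a class had one. Begain had a change of -0.71 (SE 0.28) and Rtl1 of -0.04 (SE 0.23) in glutamatergic nuclei. Among 6 other nuclear non-coding RNAs, 13 of 83 edgeR tests (15.7%) had an unadjusted p under 0.05, against the same 6.2%. These 83 tests repeat 6 genes over classes that share the same 4 libraries, so they are not independent of each other. The 1 test that passed was that of the paraspeckle RNA Neat1 in Bergmann glia (log2 change 1.91, SE 0.41, edgeR adjusted p 0.000811). Neat1 was at 62.7 and 77.6 CPM in WT (8 and 20 UMIs) and 267 and 304 in KO (30 and 27 UMIs). With DESeq2 0 of 2546 genes passed in this class, and with suspected doublets kept 0 of 1278, so Neat1 passed in neither. Whether it passed in the other alternatives is not given here. In glutamatergic nuclei Malat1 had a change of -0.42 (SE 0.19), Snhg11 of -0.28 (SE 0.16) and Snhg14 of -0.21 (SE 0.14). Slit2 passed the interaction test for glutamatergic nuclei minus astrocytes, with a difference of -1.02 (SE 0.25, edgeR adjusted p 0.0388).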

How the data were processed

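The assay was droplet sequencing of single nuclei (10x 3′ v3), per the labels' protocols. The authors deposited integer UMI counts per gene and barcode. Seurat 3.2.3, Cell Ranger 4.0.0 and GRCm38 are listed in the submitters' processing notes. The intron setting, strand setting and annotation release are not given in the sources used here. Nuclei had at least 500 UMIs and under 5% mitochondrial UMIs, which removed 17.8% and 8.78% of WT and 5.64% and 6.13% of KO barcodes. Scrublet's automatic threshold in scanpy 1.11.5 marked 0 to 3 nuclei, so the top scores were removed at 0.8% per 1000 barcodes. Leiden clustering (30 components, 15 neighbours, resolution 1) used 2000 variable genes without the 8 hosts, and classes were named from marker lists. Counts were summed per class and library and tested with edgeR 4.0.16 (filterByExpr, TMM, quasi-likelihood, two-sided), with DESeq2 1.42.0 as an alternative. SE is the absolute log2 change over the root of F. The fits were checked on simulated data. Hosts, lists, markers and tests were chosen with earlier results of these data known. Named are all hosts and, of each list, the 3 largest changes in glutamatergic nuclei and any gene that passed. The group of a library is its label.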

Additional observations from a re-analysis of the deposited data

How the results depend on the processing

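With 2 libraries in each group, 1 library can decide a value, and depth limits Mirg, Mir9-3hg and Mir124a-1hg in the small classes. None of the 7 tested hosts passed in any class with DESeq2, RLE scaling, Leiden resolution 2 or doublets kept. The same held with no mitochondrial maximum (which left no counterpart of cluster 5), without Malat1 and mitochondrially encoded genes, and without the deepest nuclei. Leaving out a library leaves 1 in its group, so only log2 changes are given for those fits. With no filter on low counts 1 host, Rian, passed in endothelial nuclei, where 38 of 15425 genes passed. With a replicate block 2 hosts passed in endothelial nuclei and 0 elsewhere. These were Meg3 (log2 change -1.11, edgeR adjusted p 0.00309) and Rian (-2.34, adjusted p 0.00224). With that block 100 of 2717 genes passed in endothelial nuclei, against 0 of 2717 in the main fit. The fits with no filter and with the block still held the deepest WT1 nucleus of that class. The replicate numbers do not establish pairs, since deviations of same-numbered libraries correlated from -0.14 to 0.31 (the latter in endothelial nuclei).

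Of 386 recomputed log2 changes, 25 changed sign, and the cause was not tested. Not every tested pair was recomputed here. The 386 cover all nuclei, glutamatergic nuclei, cluster 18, and the pairs and class differences with an unadjusted edgeR p under 0.05. With single libraries left out, over all nuclei Meg3 ran from -0.14 to 0.58, Rian from -0.055 to 0.41, Mirg from -0.026 to 0.28 and Mir124a-1hg from -0.18 to 0.27. In cluster 18 Meg3 ran from -0.15 to 0.41, Rian from -0.030 to 0.32, Mirg from -0.22 to 0.19, Mir100hg from -0.011 to 0.050, Mir9-3hg from -0.41 to 0.34 and Mir124a-1hg from -0.12 to 0.39. In glutamatergic nuclei Meg3 ran from -0.36 to 0.67, Rian from -0.25 to 0.42, Mirg from -0.086 to 0.44, Mir100hg from -0.23 to 0.18, Mir9-3hg from -0.010 to 0.080 and Mir124a-1hg from -0.34 to 0.035. Mir9-3hg also changed sign in cluster 18 with no mitochondrial maximum (-0.056) and with the replicate block (-0.052), and in glutamatergic nuclei with no filter on low counts (-0.011).

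Of 336 recomputed levels, 20 moved by more than 1 SD, 10 each with Leiden resolution 2 and with the hosts among the clustering genes. Thinning to 1000 UMIs moved 119 of 136 shares of nuclei beyond their interval.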
